A study of Mus musculus with 6 samples.

Results

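Regulators of G-protein signaling (RGS proteins) form a family of intracellular proteins that shorten signals from G-protein-coupled receptors. Of this family, 8 genes were followed here in the mouse aorta: Rgs2, Rgs3, Rgs4, Rgs5, Rgs10, Rgs12, Rgs14 and Rgs16. They were chosen by gene symbol, and all 8 are among the 55487 genes of the count table. A hormone bound to its receptor loads the G-protein alpha subunit with GTP, and the RGS domain speeds the hydrolysis of that GTP and so ends the signal. In vascular smooth muscle cells (VSMCs), receptors for angiotensin, endothelin and norepinephrine signal through Gq and Gi to raise calcium and tone, and RGS proteins set how long that response lasts. Rgs5 is widely used as a marker of pericytes and arterial VSMCs.

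Aortas of male mice, 3 Prdm16 iSM KO and 3 controls, were profiled by bulk RNA-seq. Prdm16 encodes a transcriptional regulator with a PR domain. The iSM KO mice carried floxed Prdm16 alleles, with loxP sites around exon 9, and the Myh11-CreERT2 transgene, which gives tamoxifen-dependent Cre activity in smooth muscle cells. The controls were wild-type littermates that carried the same Cre and received the same tamoxifen. All mice were on a C57BL/6 background. Injections began at 8 weeks of age, with 1 mg of tamoxifen per day for 10 days. The washout lasted 2 weeks, aortas were taken 60 days later, and the adventitia was removed before RNA extraction. Since Cre acts in smooth muscle cells, other cells of the aorta keep Prdm16. In bulk tissue, fewer cells of a type and less RNA per cell cannot be told apart.

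Libraries held 24911609 to 40460467 counts each. Prdm16, counted over the whole gene, fell from 195 ± 24.5 to 95.4 ± 16.5 CPM (mean ± SD, n = 3), or by 1.03 on the log2 scale (FDR = 0.00265 in edgeR's quasi-likelihood test). CPM is the count divided by the library's TMM-scaled total and expressed on the usual fixed library size. Of 16565 genes that passed the filter on low counts, 705 rose and 547 fell at an FDR under 0.05. Smooth muscle markers (Myh11, Acta2 and 5 others) summed to 22392 to 27357 CPM in controls and 24004 to 26415 CPM in iSM KO, and 1 of the 7 genes rose (Myocd).

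The 8 genes lie on 5 chromosomes of GRCm38 (mm10), and 4 of them share chromosome 1. Rgs5 (ENSMUSG00000026678) spans 169655501 to 169695813 on the plus strand, and Rgs4 (ENSMUSG00000038530) spans 169741477 to 169747642 on the minus strand. The 2 genes are separated by 45663 bp, with no protein-coding gene between them. Rgs2 (ENSMUSG00000026360, 143999338 to 144004161, minus strand) and Rgs16 (ENSMUSG00000026475, 153740349 to 153745468, plus strand) lie elsewhere on chromosome 1, each beside other RGS genes. Rgs3 (ENSMUSG00000059810) lies on chromosome 4, 62559847 to 62704001, plus strand. Rgs12 (ENSMUSG00000029101) lies on chromosome 5, 34949445 to 35039644, plus strand. Rgs10 (ENSMUSG00000030844) lies on chromosome 7, 128373621 to 128418758, minus strand, and Rgs14 (ENSMUSG00000052087) on chromosome 13, 55369732 to 55384687, plus strand.

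The 250 bases before the annotated RefSeq start site (GRCm38.p6) are shown for the neighbors Rgs4 and Rgs5 and for both start sites of Rgs3, the genes on which the results turn. Each is written on the gene's own strand, 5′ to 3′, and capitals mark the TATA box TATAAA and, on either strand, the CCAAT box.
Rgs4, chr1:169747643-169747892, minus strand: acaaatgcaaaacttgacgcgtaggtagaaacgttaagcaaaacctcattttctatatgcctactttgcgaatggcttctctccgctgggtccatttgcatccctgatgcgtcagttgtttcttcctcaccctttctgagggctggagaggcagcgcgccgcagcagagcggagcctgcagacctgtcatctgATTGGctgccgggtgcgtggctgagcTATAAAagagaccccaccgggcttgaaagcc
Rgs5, chr1:169655251-169655500, plus strand: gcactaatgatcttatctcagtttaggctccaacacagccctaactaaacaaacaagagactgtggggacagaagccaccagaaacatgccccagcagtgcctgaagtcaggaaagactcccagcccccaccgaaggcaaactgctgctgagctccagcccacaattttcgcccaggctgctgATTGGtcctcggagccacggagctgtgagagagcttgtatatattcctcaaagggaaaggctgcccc
Rgs3, first start site, chr4:62559597-62559846, plus strand: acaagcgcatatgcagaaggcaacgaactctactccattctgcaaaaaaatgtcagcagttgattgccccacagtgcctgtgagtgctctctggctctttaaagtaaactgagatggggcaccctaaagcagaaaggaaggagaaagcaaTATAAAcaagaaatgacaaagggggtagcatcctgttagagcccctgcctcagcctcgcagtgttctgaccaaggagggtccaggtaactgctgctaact
Rgs3, second start site, chr4:62619422-62619671, plus strand: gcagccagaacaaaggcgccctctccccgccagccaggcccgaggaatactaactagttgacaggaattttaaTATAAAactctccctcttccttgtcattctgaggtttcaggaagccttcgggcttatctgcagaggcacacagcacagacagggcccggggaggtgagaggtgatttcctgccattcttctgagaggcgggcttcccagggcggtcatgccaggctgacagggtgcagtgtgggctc

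Both strands were searched for 4 motifs: the TATA box, spelled TATAAA, the CCAAT box, the cyclic AMP response element, spelled TGACGTCA, and the CArG box, the site of serum response factor. Matches to them do not overlap in these windows. Rgs4 holds TATAAA 31 to 26 bases and CCAAT 57 to 53 bases before its start. Rgs5 holds CCAAT 67 to 63 bases before its start and has no match to TATAAA. Other spellings of the TATA box, such as the tatatat near its start, were not searched. In Rgs3 the string TATAAA stands 100 to 95 bases before the first start and 177 to 172 bases before the second. Among 32851 mouse promoters of the same length, 12.37% hold TATAAA and 33.85% hold CCAAT. The element TGACGTCA (1.546% of promoters) and the CArG box (1.467%) are not in the 4 windows. The Rgs4 and Rgs5 windows have the same GC content, 53.6%, but 13 and 4 CpG dinucleotides, against a median of 6 over all promoters. These matches are descriptions of sequence and do not show that a factor binds.

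Rgs4 rose in iSM KO and was the only one of the 8 genes to change by more than 2-fold. Rgs3 fell by less than 2-fold, and Rgs5, the most abundant RGS transcript, did not pass the test. Of the 6 genes with enough counts to be tested, 1 rose (Rgs4) and 1 fell (Rgs3) at an FDR under 0.05. Over all tested genes 4.26% rose and 3.3% fell by that rule. Only Rgs4 also passed the 2-fold limit, which 1.4% of tested genes passed upward and 1.38% downward. The median log2 fold change was -0.06 over the 6 genes and -0.01 over all genes tested. Rgs14 and Rgs16 had too few counts to be tested.

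**Figure D1:**
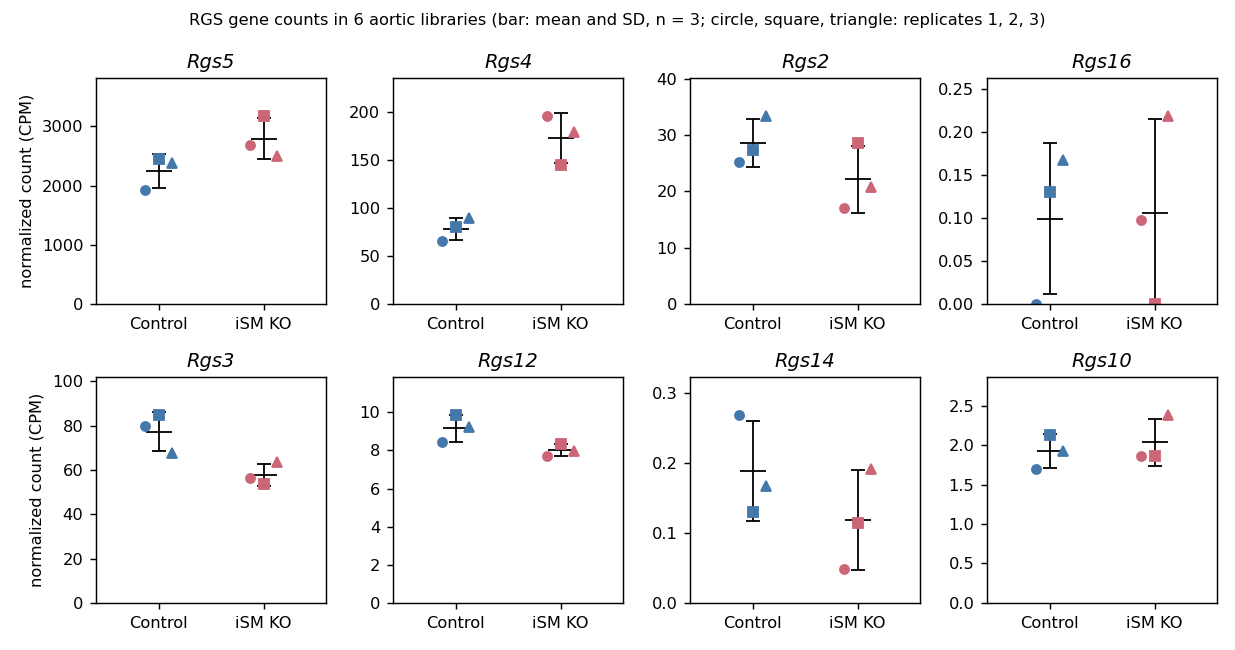
Normalized counts (CPM, linear axes from 0) of the 8 RGS genes in each control (blue) and iSM KO (red) library, with the mean and SD of 3 mice per group as black bars. The iSM KO values of Rgs4 (144 to 195 CPM) lie above all its control values (65.5 to 88.9 CPM), and those of Rgs3 lie below.

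Rgs5 encodes a small RGS protein that acts on Gq and Gi alpha subunits. It had 1919, 2449 and 2381 CPM in controls 1, 2 and 3 and 2690, 3175 and 2507 CPM in iSM KO 1, 2 and 3. All 3 iSM KO values lay above the controls, but iSM KO 3 exceeded the highest control by little. The log2 fold change was 0.31 (SE, the standard error, 0.14, 95% interval 0.002 to 0.62). The edgeR p was 0.0487 before adjustment and the FDR was 0.223. Thus the difference did not pass the test after adjustment over all tested genes, and its size remains uncertain within that interval.

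Rgs4 encodes the neighbor of Rgs5 and likewise acts on Gq and Gi alpha subunits. It had 65.5, 79.8 and 88.9 CPM in controls and 195, 144 and 179 CPM in iSM KO. The groups did not overlap, and the lowest iSM KO library stood well above the highest control. The mean rose from 78.1 ± 11.8 to 173 ± 26.0 CPM (SD, n = 3), a fold change of 2.22. On the log2 scale this was 1.15 (SE 0.14, 95% interval 0.83 to 1.46, edgeR FDR = 0.00166). The call held in 6 of 6 fits that left out 1 library, with log2 fold changes of 1.04 to 1.26.

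Few genes near Rgs4 and Rgs5 could be tested. Within 500 kb, 4 other genes passed the filter (Hsd17b7, Ddr2, Uap1 and Uhmk1), and all of them lie beyond Rgs4. No other gene on the Rgs5 side passed the filter, so that side was not assessed. Of the 4 genes, 0 had an FDR under 0.05 with edgeR, DESeq2 or limma-voom, while 2 had an unadjusted p under 0.05 in edgeR. Their log2 fold changes were 0.47, -0.09, -0.32 and -0.06. The iSM KO values of Hsd17b7 lay wholly above the controls, as they did for 15% of all tested genes. These names follow from position alone.

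**Figure D2:**
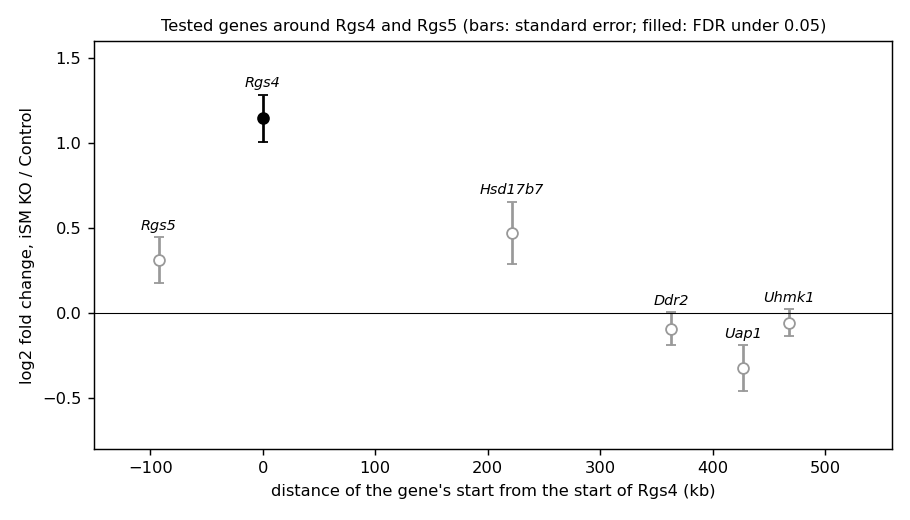
Log2 fold change (iSM KO over control) of each tested gene within 500 kb of Rgs4 and Rgs5, plotted by the distance of its start from the start of Rgs4 in kb, with standard errors. Rgs4 (filled point) is at 1.15 and is the only one of the 6 genes with an FDR under 0.05.

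Rgs2 encodes an RGS protein with a preference for Gq that is known for its part in blood pressure control. It had 25.2, 27.3 and 33.4 CPM in controls and 17.0, 28.7 and 20.8 CPM in iSM KO. The groups overlapped through iSM KO 2. The change was -0.37 on the log2 scale (SE 0.18, 95% interval -0.79 to 0.05, edgeR FDR = 0.279), so a change was not shown at this spread. The values without 1 library ran from -0.61 to -0.21.

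Rgs3 encodes a larger family member with isoforms that differ before the RGS domain. It had 79.7, 84.9 and 67.6 CPM in controls and 56.5, 53.9 and 63.5 CPM in iSM KO. Every iSM KO value lay below every control value, with a small gap between control 3 and iSM KO 3. The mean went from 77.4 ± 8.87 to 58.0 ± 4.95 CPM (SD, n = 3), a decrease of 25.2% in the fit. The change was -0.42 on the log2 scale (SE 0.10, edgeR FDR = 0.0416). That call was close to the threshold. The FDR was 0.129 without control 1, 0.0851 without control 2, 0.144 without iSM KO 1 and 0.183 without iSM KO 2.

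Part of the Rgs3 signal is uncertain because a processed pseudogene on another chromosome, Gm5763, matches 1410 bp of its transcripts at 99.8% identity. Gm5763 was listed at 6.93, 9.34 and 9.81 CPM in controls and 6.55, 5.85 and 7.17 CPM in iSM KO. Per kb of exon union, its mean level was 5.68 CPM in controls and 4.26 in iSM KO, against 7.17 and 5.37 for Rgs3. In control 3 it was above Rgs3 (6.41 against 6.26). This closeness depends on the union length, 1530 bp for Gm5763 and 10801 bp for Rgs3. By the longest Rgs3 transcript, 4698 bp, Rgs3 would stand above Gm5763 in every library. With its counts added to those of Rgs3, the log2 fold change was -0.42 (FDR = 0.0346 from edgeR), a setting chosen after seeing the data. An antisense gene, Gm11209, also overlaps Rgs3, and the strand setting of the counting is not given in the sources used here.

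Rgs12 encodes the longest protein of the group, which binds Gi alpha subunits through a second motif besides the RGS domain, and Rgs14 has a similar layout. Rgs12 had 8.45, 9.86 and 9.22 CPM in controls and 7.70, 8.34 and 7.97 CPM in iSM KO. The groups did not overlap, but the gap was small and the FDR was 0.345 (edgeR, log2 fold change -0.20, SE 0.11). In all, 2 of the 6 tested genes had iSM KO values wholly above the controls (Rgs4, Rgs5), where 15% of all tested genes did. Another 2 had them wholly below (Rgs3, Rgs12), where 13% did.

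Rgs10 encodes a short RGS protein best known from microglia and other immune cells. It had 1.70, 2.13 and 1.93 CPM in controls and 1.86, 1.86 and 2.38 CPM in iSM KO. The groups overlapped, with a log2 fold change of 0.08 (95% interval -0.41 to 0.58, FDR = 0.862 from edgeR). The interval leaves room for changes in either direction. A same-strand transcript, Gm15503, overlaps Rgs10.

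Rgs14 and Rgs16 were at the limit of detection. Rgs14 had 9, 5 and 4 counts in controls and 2, 4 and 7 counts in iSM KO. Rgs16 had 0, 5 and 4 counts in controls and 4, 0 and 8 counts in iSM KO. A difference in either gene was not detectable at this depth. A count of 0 allows up to 3 counts in a library, and such floors cover counting error only.

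Levels of different genes were compared only per length, as CPM per kb of annotated exon. Rgs5 led with 495 ± 63.5 CPM per kb in controls and 614 ± 76.0 in iSM KO (SD, n = 3). Rgs4 came second, with 25.2 ± 3.80 CPM per kb in controls and 55.8 ± 8.39 in iSM KO. Rgs2 had 7.90 ± 1.18 CPM per kb in controls and 6.10 ± 1.64 in iSM KO. Rgs3 had 7.17 ± 0.82 CPM per kb in controls and 5.37 ± 0.46 in iSM KO, and its range overlapped that of Rgs2 in both groups. That overlap depends on the length used: the exon union of Rgs3 has 10801 bp and its longest transcript 4698 bp (Rgs2, 3627 and 3021 bp). By longest transcript, Rgs3 would stand above Rgs2 in both groups. Rgs10 and Rgs12 followed at about 1 CPM per kb, with ranges that overlapped in controls and stood apart in iSM KO. By longest transcript (880 bp for Rgs10 and 5472 bp for Rgs12), the ranges would stand apart in controls too. Rgs14 and Rgs16 were lowest and overlapped.

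The makeup of the family was described by each gene's share of the summed per-length level of the 8 genes. Rgs5 held 92.1% ± 0.38 in controls and 89.7% ± 1.90 in iSM KO (SD, n = 3). The share of Rgs4 was 4.60%, 4.42% and 5.03% in controls and 9.46%, 6.13% and 9.25% in iSM KO. All 3 iSM KO shares were higher than the controls, and iSM KO 2, with the highest Rgs5 level, had the lowest of them. The ratio of Rgs5 to Rgs4 was 19.7 ± 1.34 in controls and 11.3 ± 3.18 in iSM KO. Exact two-sided permutation tests over the mice gave p = 0.1 for the Rgs4 share and for the ratio, the smallest p that 3 against 3 mice can give, and 0.3 for the Rgs5 share. Over the 10 such comparisons made, the adjusted p of this exact test was 0.167 for the first pair and 0.375 for the Rgs5 share.

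**Figure D3:**
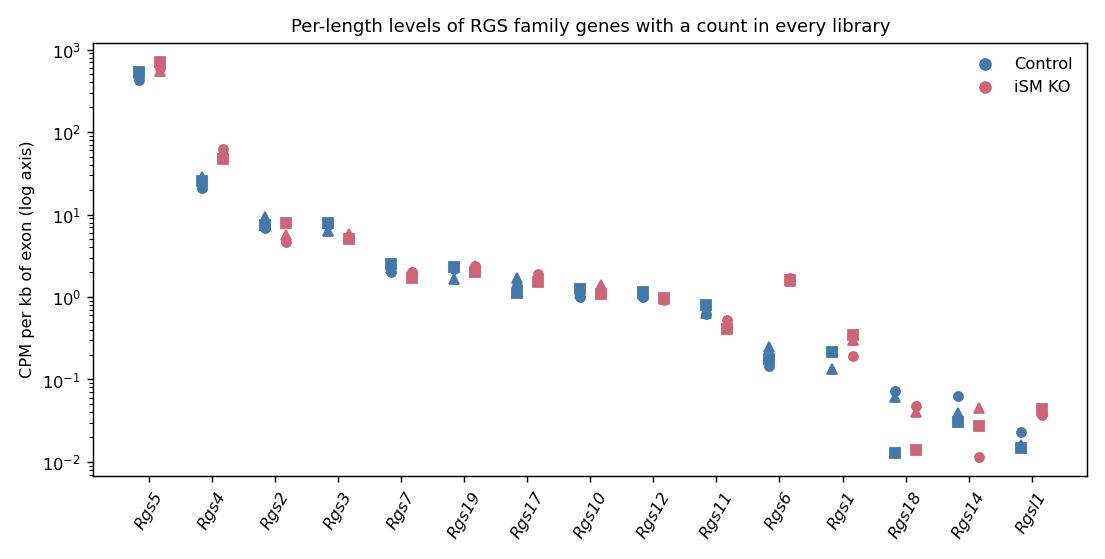
Level per length (CPM per kb of exon, log axis) in each control and iSM KO library for RGS family genes with a count in every library, ordered by mean. Rgs20, which also had a count in every library, was left out for its low level. Rgs5 lies above Rgs4 and both lie above all the others, and Rgs6 is near 0.2 CPM per kb in controls and near 1.6 in iSM KO.

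A further 14 genes of the family were examined: 13 other Rgs genes and Rgsl1. Of these, 6 passed the filter (Rgs1, Rgs6, Rgs7, Rgs11, Rgs17 and Rgs19), 1 rose and 0 fell by edgeR's FDR. Over all tested genes 4.26% rose and 3.3% fell. The gene that rose, Rgs6 (ENSMUSG00000021219), belongs with Rgs7, Rgs9 and Rgs11 to the R7 group, whose proteins form a complex with the G beta protein Gnb5. Rgs6 had 49, 68 and 59 counts in controls and 703, 570 and 571 counts in iSM KO. No iSM KO library came near the control range. The change was 3.13 on the log2 scale (edgeR FDR = 3.36e-05), larger than that of Rgs4, and it held in 6 of 6 fits without 1 library. Its level remained low per length, at 0.19 ± 0.05 CPM per kb in controls and 1.64 ± 0.08 in iSM KO (SD, n = 3), which moved it from rank 11 to rank 8 of the 22 family genes. Antisense transcripts overlap the gene.

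The other R7 genes with enough counts had log2 fold changes of -0.24 (Rgs7, FDR = 0.281 from edgeR) and -0.55 (Rgs11, FDR = 0.161 from edgeR). Of 5 partners of R7 proteins, 2 were tested, Gnb5 and the membrane anchor Rgs7bp, and 0 had an FDR under 0.05 with edgeR, DESeq2 or limma-voom, or an unadjusted p under 0.05. Gnb5 had a log2 fold change of 0.25 and Rgs7bp of -0.20. Among the remaining family genes, Rgs13 and Rgs21 had 0 counts in all libraries. The median over the 6 tested genes was 0.21.

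**Figure D4:**
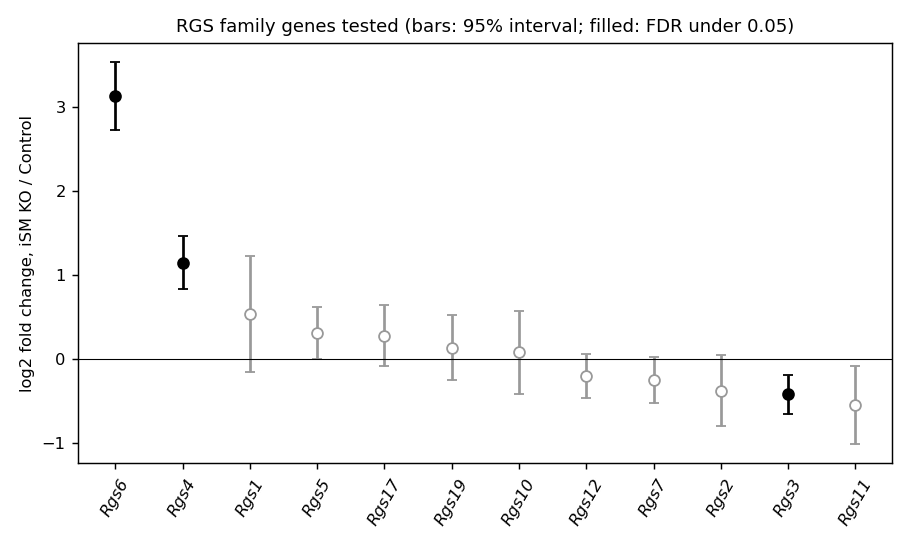
Log2 fold change (iSM KO over control) with 95% intervals for the 12 RGS family genes tested by edgeR, with filled points for an FDR under 0.05. Rgs6 (3.13) and Rgs4 (1.15) are filled above 0 and Rgs3 (-0.42) is filled below 0.

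Next, the genes on either side of RGS proteins in the pathway were counted. The lists were chosen with earlier results of these data known. Their counts beside the shares of all genes are therefore descriptions and not tests. Upstream, 28 of 29 listed Gq- and Gi-coupled receptors of arterial muscle were tested. By edgeR's FDR 3 rose and 2 fell, where 4.26% of all tested genes rose and 3.3% fell. The median log2 fold change was 0.22. DESeq2 gave 9 and limma-voom 6 receptors in all, against 1711 and 1244 of all 16565 tested genes. Those past 2-fold were Npy4r, Adra1b, Adra2b and Adra1a. Npy4r, a receptor for pancreatic polypeptide, had 107, 122 and 67 counts in controls and 1837, 1593 and 1621 counts in iSM KO, a fold far beyond the spread between mice.

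Receptors for norepinephrine moved in both directions. Adra1b rose from 3.03 ± 0.30 to 8.21 ± 1.04 CPM (SD, n = 3), with an FDR of 0.00102 from edgeR. Adra1a fell from 6.01 ± 2.08 to 2.11 ± 0.44 CPM (FDR = 0.0142 from edgeR), but its FDR was 0.0567 without control 3 and 0.0595 without iSM KO 1. Adra1d fell from 65.3 ± 2.11 to 41.6 ± 3.12 CPM, short of the 2-fold limit (FDR = 0.00163 from edgeR). It was named after its values were seen, as were the other listed pathway and marker genes short of the 2-fold limit. Adra2b, an alpha-2 receptor coupled to Gi, had 2, 2 and 0 counts in controls and 33, 32 and 22 counts in iSM KO (FDR = 0.00277 from edgeR).

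G proteins are the substrates and partners of RGS proteins. Of 13 G alpha subunits 12 were tested, 1 rose and 0 fell, where 4.26% of all tested genes rose and 3.3% fell. This was Gnao1, a Gi-type subunit, which went from 68.0 ± 13.2 to 106 ± 8.42 CPM (FDR = 0.0196 from edgeR, 0.0620 without control 3 and 0.0957 without iSM KO 2). Gnaq and Gnai2, the alpha subunits of the calcium-raising and cAMP-lowering routes, had log2 fold changes of -0.07 and 0.06. Of 10 tested G beta and gamma subunits, 0 had an FDR under 0.05 with edgeR or limma-voom and 1 with DESeq2, and 2 had an unadjusted p under 0.05 in edgeR. Of 6 tested phospholipase C beta and IP3 receptor genes, 0 had an FDR under 0.05 with any of the 3 tools, and 2 had an unadjusted p under 0.05. Among 14 other proteins with an RGS homology domain, all tested, 1 fell. This was Grk3, a kinase that desensitizes receptors (17.6 ± 0.63 to 13.2 ± 1.20 CPM, FDR = 0.0381 from edgeR), and its FDR was 0.0575 to 0.169 when any 1 library was left out.

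In the relaxing cyclic GMP pathway, whose kinase is known to phosphorylate Rgs2 protein, 7 of 7 genes were tested. Of these, 2 rose and 0 fell, where 4.26% of all tested genes rose and 3.3% fell. The median log2 fold change was 0.17. Pde5a, the phosphodiesterase that degrades cyclic GMP, rose from 255 ± 32.7 to 459 ± 14.6 CPM (FDR = 0.00178 from edgeR). Gucy1b1, a subunit of the nitric oxide receptor, rose from 156 ± 13.5 to 240 ± 16.2 CPM (FDR = 0.00452 from edgeR).

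Several other measures differed between the groups beside Rgs4 and Rgs3. Immediate early genes, which respond quickly to stress and receptor signals, summed to 1031, 2194 and 1010 CPM in controls and 905, 799 and 822 CPM in iSM KO. Of 17 tested, 5 fell, where 3.3% of all tested genes fell, and Dusp1, Nr4a2 and Fos passed 2-fold. None rose, where 4.26% of all did, and 3 had a log2 fold change above 0. The highest of these was Egr2, with 4.06, 8.38 and 2.14 CPM in controls and 11.9, 12.4 and 13.3 CPM in iSM KO, which did not overlap (log2 fold change 1.33, edgeR FDR = 0.0628, and 0.000592 to 0.183 among the alternatives). Fos was at 50.3, 213 and 39.3 CPM in controls and 13.9, 14.4 and 13.9 CPM in iSM KO. Its FDR was 0.0190 from edgeR, 0.0682 without iSM KO 1 and 0.0819 without iSM KO 2. The FDR of Nr4a2 was 0.0145, and 0.0504 and 0.0648 without the same libraries, and that of Dusp1 was 0.00898, and 0.0510 without iSM KO 2. Control 2 had the highest sum of these genes. It was also the highest control in Rgs3, Rgs5, Rgs10 and Rgs12, and lay between the other controls in Rgs2 and Rgs4. Without it the log2 fold change was 1.17 for Rgs4 (edgeR FDR = 0.00753) and -0.34 for Rgs3 (edgeR FDR = 0.0851). Without control 2, Fos was at -1.67 (-2.85 with all libraries) and Nr4a2 at -1.01 (-1.42 with all). Dusp1 was then at -0.96 (-1.28 with all), short of the 2-fold limit. All 3 kept an edgeR FDR under 0.05 in that fit. The part of the immediate early genes in the RGS values was not tested.

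Pericyte markers, which often accompany Rgs5, summed to 1708 to 1936 CPM in controls and 2162 to 2255 CPM in iSM KO. Of 6 listed, 5 were tested, 0 rose and 1 fell with edgeR (Notch3, which passed in 1 of 6 fits without 1 library), 4 had an unadjusted p under 0.05 and 4 passed with DESeq2, and Higd1b was near 0 with at most 3 counts in any library. Adipocyte markers summed to 24.8 to 108 CPM in controls and 7.08 to 11.6 CPM in iSM KO, and 4 of 5 tested fell (5 with DESeq2, 1 with limma-voom). With edgeR, 4.26% of all tested genes rose and 3.3% fell. In either direction, 1711 of all 16565 tested genes passed with DESeq2 and 1244 with limma-voom. Fibroblast markers summed to 1069 to 1309 CPM in controls and 789 to 812 CPM in iSM KO, with 0 of 6 at an FDR under 0.05 with edgeR or limma-voom, 2 with DESeq2 and 6 at an unadjusted p under 0.05. Endothelial markers (477 to 983 CPM in controls, 251 to 757 CPM in iSM KO) and macrophage markers (22.7 to 27.5 and 8.91 to 25.4 CPM) overlapped between groups. Of 6 tested in each, 0 had an FDR under 0.05 with edgeR, and 0 endothelial and 2 macrophage genes had an unadjusted p under 0.05 (0 and 1 passed with DESeq2). The part of these cells in the RGS values was not tested.

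Lists for other cell types were summed in the same way. Markers of T cells (0.60 to 0.86 CPM in controls, 1.20 to 1.62 in iSM KO), B cells (0.27 to 0.91 and 0.14 to 0.25), Schwann cells (2.91 to 4.39 and 3.12 to 5.72), platelets (5.58 to 7.73 and 4.54 to 7.48) and skeletal muscle (2.89 to 3.98 and 2.32 to 2.67) stayed under 8 CPM in sum, and of all of these 1 T cell gene rose. Brown adipocyte markers summed to 22.6 to 57.3 CPM in controls and 19.4 to 22.1 in iSM KO, where 1 of 4 tested rose and 1 fell. Cardiomyocyte markers summed to 118 to 148 CPM in controls and 160 to 215 in iSM KO, where 2 of 4 tested rose. Among all tested genes 4.26% rose and 3.3% fell.

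**Figure D5:**
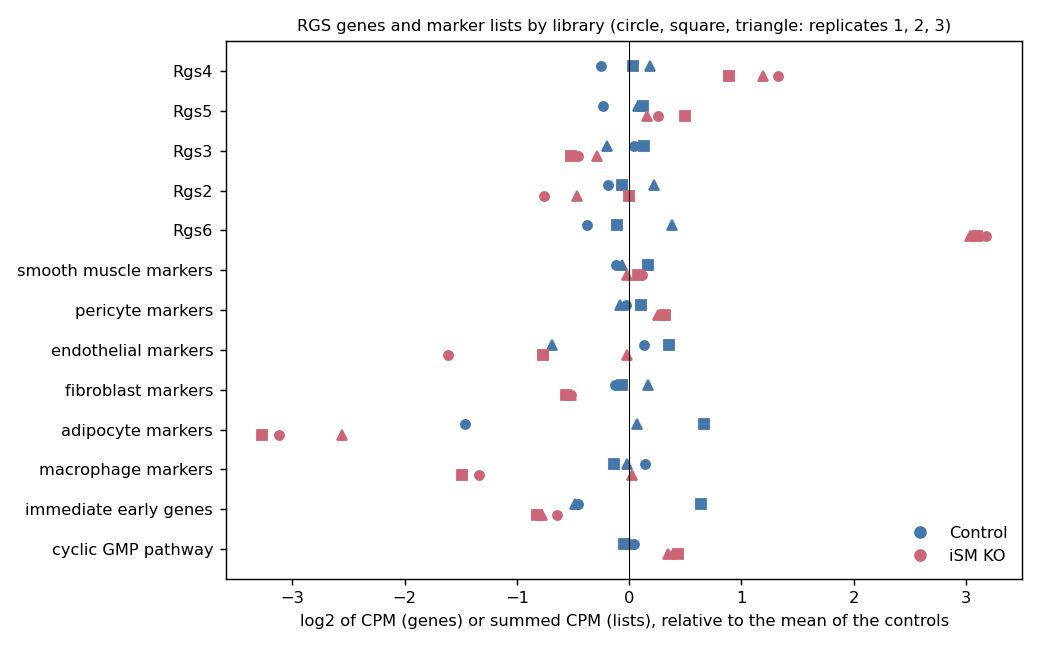
Level in each library as log2 of CPM (genes) or summed CPM (lists) relative to the control mean. Rgs4 and Rgs6 lie to the right of all controls and Rgs3 to the left, while the summed pericyte and cyclic GMP lists are shifted right and the adipocyte and fibroblast lists left in iSM KO. Of the 5 tested pericyte genes, 3 had a log2 fold change above 0 and 2 below.

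The patterns most like those of Rgs4 and Rgs3 over the 6 libraries were found by the root mean square difference of centered log2 CPM. For Rgs4 these were Gm10069 (0.12), AI506816 (0.14) and Slc2a3 (0.15), a glucose transporter with a log2 fold change of 1.16. For Rgs3 they were Sh3bp4 (0.05), Hdac10 (0.06) and Mov10 (0.06). This ranking describes the 6 libraries and carries no test.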

How the data were processed

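RNA-seq was performed on aortas of 3 iSM KO and 3 control mice. RNA was depleted of ribosomal RNA, sequenced as paired 150 bp reads, and mapped and quantified by the authors against Ensembl release 101 (mm10) with Illumina DRAGEN. The authors deposited estimated counts per gene, with no normalization. How reads matching several genes were shared is not given in the sources used here.

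Counts were rounded. A gene was kept if its count exceeded 10 in each library of 1 group or of both. The main test was edgeR's quasi-likelihood test (version 4.0.16, R 4.3.3) of iSM KO against control, using TMM factors and no covariates, with Benjamini-Hochberg adjustment (FDR). "Rose" and "fell" mean an FDR under 0.05. Where genes with an unadjusted p under 0.05 are counted, the share over all tested genes was not computed. Shares were compared with exact permutation tests in SciPy 1.17.1. Levels per kb used the union of exons in GENCODE release M21 (GRCm38). Scripts were tested on simulated data. No pair of libraries agreed within sampling noise by a chi-square test. Chi-square per degree of freedom was 47.8 to 70.5 between controls and 12.1 to 19.4 between iSM KO libraries. Between a control and an iSM KO library it was 51.8 to 81.5.

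The 8 genes and all lists were chosen with earlier results of these data known. The rule for named genes took the 8 genes, list members past 2-fold (up to 5 per list), Prdm16, and the 3 genes most like each of the 2 RGS genes with the smallest FDR. Other list members were named after their values were seen. RefSeq promoters (250 bases before each start) were found for 7 of the 8 genes, not Rgs14. Copies were sought with blastn 2.17.0 (at least 95% identity over 100 bp). Alternatives were DESeq2 1.42.0, limma-voom (limma 3.58.1), other size factors, filters and gene lengths, the replicate block and each library left out in turn.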

Additional observations from a re-analysis of the deposited data

How the results depend on the processing

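Rgs4 kept its direction and its call under all 12 alternatives, with FDR of at most 0.00773, and Rgs5 and Rgs2 stayed short of the threshold in all of them. Leaving out 1 library gave 128 to 317 genes called lower (229 with all libraries), 516 to 1402 genes with an FDR under 0.05 (1252 with all), and 1 to 2 of the 8 RGS genes with an FDR under 0.05. The lowest counts came without iSM KO replicate 2 (128 and 516 genes) and without iSM KO replicate 1 (133 and 624 genes). With no filter on low counts, 349 genes were called lower. With the replicate number as a block, 775 genes and 1 RGS gene had an FDR under 0.05, and Rgs3 had an FDR of 0.117. The sources used here do not say that the numbers pair the mice. Deviations of same-numbered libraries from their group means had correlations of -0.13, -0.05 and -0.11. With 3 libraries per group, these values cannot decide whether mice were paired. Rgs10 turned to a log2 fold change of -0.049 without iSM KO replicate 3 (0.08 with all libraries, up to 0.17 without 1 library). The cause of these shifts was not tested, and fits without 1 library also hold fewer samples. The higher Rgs4 share did not move by more than the spread between mice under other lengths or without 1 library. The lower Rgs3 share did move, from a difference of -0.56 percentage points to -1.12 by longest transcript and -1.28 without length. That of Rgs12 moved from -0.06 to -0.09 and -0.11. With 3 mice per group, the differences seen in Rgs2 and Rgs5 did not reach an FDR under 0.05, and fewer than 10 counts per library limit Rgs14 and Rgs16.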
